A study of Mus musculus with 2 samples.

Results

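The cells described here were T cells of mouse fat and spleen that carried RNA of Klrb1c, the gene of the natural killer receptor NK1.1, and no RNA of Foxp3, the gene that defines regulatory T cells. A barcode was kept as a T cell with at least 500 genes, at least 1000 gene UMIs (unique molecular identifiers, 1 per captured RNA molecule), under 10% mitochondrial UMIs and at least 1 UMI of Trbc1 or Trbc2, the constant segments of the T cell receptor beta chain. Of 16724 barcodes in both libraries, 12789 passed, and 282 of these had at least 1 Klrb1c UMI and no Foxp3 UMI. They are called Klrb1c-positive cells. They were set beside 2435 T cells with at least 1 UMI of Cxcr6, a chemokine receptor of tissue effector T cells and natural killer T cells, and no UMI of Klrb1c or Foxp3, called Cxcr6 cells. Both groups were chosen by their UMIs of Klrb1c, Foxp3, Cxcr6, Trbc1, Trbc2 and mitochondrial genes, so the values of these genes are not results.

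The donors were wild-type C57BL/6J males aged 8 weeks, and the labels used here name no treatment. Subcutaneous fat (SAT), visceral fat (VAT) and brown fat (BAT) were digested with collagenase II and spleens were dissociated mechanically, after which live cells staining for TCR beta, CD3 and CD4 were sorted in 2 rounds. Each of 2 experiments gave 1 droplet library in which 8 samples, 2 per tissue, were marked with hashtag antibodies, so each tissue had 4 hashed samples (replicates 1 and 2 in experiment 1, replicates 3 and 4 in experiment 2). The labels call these samples biological duplicates and do not say whether each was 1 mouse or a pool. The p-values below therefore measure only the spread between hashed samples, which may be technical. Those of the gene test that splits cells by Zbtb16 rest on sums of the 2 libraries instead.

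Natural killer T cells are T cells that recognise lipids presented by CD1d and develop under the transcription factor Zbtb16 (PLZF). In mice most of them share 1 alpha chain, built from Trav11 and Traj18, which pairs with beta chains of Trbv13-2, Trbv29 or Trbv1. NK1.1 is also carried by natural killer cells and by some activated conventional and gamma delta T cells. Fat harbours invariant natural killer T cells, which are known there for interleukin 2 and interleukin 10.

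The joining segment Traj18 is shown because it is the part of the alpha chain that marks the invariant receptor and was not used to choose the cells. It lies on mouse chromosome 14 at chr14:54200777-54200842 on the plus strand (66 bases, GENCODE vM21 on mm10). The capitals mark a match to TTTGGNNNNGGN, searched on the coding strand alone and in any frame. It spells the phenylalanine-glycine-any-glycine motif of joining segments with TTT as the only codon for phenylalanine. The match spans bases 33 to 44, and 36 of the 60 annotated alpha joining segments (60%) hold this spelling. Segments with another spelling of the motif were not counted.
Traj18: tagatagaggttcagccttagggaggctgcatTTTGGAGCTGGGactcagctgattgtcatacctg

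The libraries held 29153747 and 43879975 gene UMIs over 55487 genes. T cells had a median of 6121 UMIs in experiment 1 and 4316.5 in experiment 2. Klrb1c-positive cells numbered 94 and 188, with medians of 6841.5 and 4821.5 UMIs, against 895 and 1540 Cxcr6 cells with medians of 6251 and 4551.5 UMIs. Of the 282 Klrb1c-positive cells, 217 were given to 1 hashed sample, 36 carried hashtags of more than 1 sample and 29 could not be resolved. The hashtags of SAT replicate 1 and BAT replicate 4 were weak, so that 376 and 114 T cells were given to these samples, and 103 and 24 by a stricter rule. The libraries shared 20 barcode sequences, 8 of them among T cells and 1 among Klrb1c-positive cells.

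The markers of the working name, NKT-like, were only partly present, so the cells are called by the gene that chose them. At least 1 UMI of Zbtb16 was found in 23 of 282 Klrb1c-positive cells (8.16%), against 66 of 2435 Cxcr6 cells (2.71%). Cd160, an activating receptor of natural killer and cytotoxic cells, was found in 49.3% of Klrb1c-positive cells and 9.82% of Cxcr6 cells. Klrd1, which encodes the lectin-like receptor CD94, was found in 25.9% of Klrb1c-positive cells and 5.87% of Cxcr6 cells. On mm10 these genes lie at chr9:48654297-48836222 (Zbtb16), chr3:96798763-96829351 (Cd160) and chr6:129591782-129598775 (Klrd1), the last close to Klrb1c at chr6:128778485-128789215. In all, 102 Klrb1c-positive cells (36.2%) had none of these 3 genes and 7 had all 3, against 2042 (83.9%) and 8 of the Cxcr6 cells. A small marker count per cell limits these shares, since the gene of the sort marker itself, Cd4, was found in 38.3% of Klrb1c-positive cells and 56.6% of Cxcr6 cells. Trac, the constant segment of the alpha chain, was found in 92.2% of both.

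Markers of natural killer cells stood beside those of T cells. At least 1 of Ncr1, Eomes, Klra4, Klra7 and Klra8 was found in 41 Klrb1c-positive cells (14.5%), against 32 Cxcr6 cells (1.31%). Ncr1, the natural killer receptor NKp46, was found in 19 Klrb1c-positive cells (6.74%) and 2 Cxcr6 cells. The signalling adaptors Fcer1g and Tyrobp, which natural killer cells use in place of CD3, were found in 37.2% and 17.4% of Klrb1c-positive cells, and in 4.23% and 2.46% of Cxcr6 cells. The summed level of 12 natural killer genes ran from 316 to 2609 CPM (counts per 1000000 UMIs of the summed cells), with a median of 1042 CPM, in Klrb1c-positive cells of 10 hashed samples, and from 29.4 to 143 CPM, with a median of 53.7, in the Cxcr6 cells of the same samples. None of the 12 genes was at 0 in Klrb1c-positive cells. The sort for TCR beta and CD3 should remove natural killer cells, and the part of such cells in the results below is given only as each result without the cells that carried 1 of the 5 genes. Klra genes are near-identical copies, as are Trav11 and Trav11d, so counts within each family are uncertain.

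Markers of other lineages are given as summed levels in the same 10 samples. Genes of innate lymphoid cells, a list that shares Fcer1g and Tyrobp with the natural killer list and holds Il7r, had medians of 985 CPM in Klrb1c-positive cells (389 to 1877) and 685 CPM in Cxcr6 cells (463 to 944), higher in 7 of 10 samples, with Kit at 0. Regulatory T cell genes had medians of 408 and 375 CPM, higher in 4 of 10 samples, with Foxp3 at 0 in both groups by the choice of cells. B cell genes summed to a median of 123 CPM in Klrb1c-positive cells and 137 CPM in Cxcr6 cells, with Ms4a1 at 0 in Klrb1c-positive cells. Stromal and fat cell genes had medians of 14.2 and 37.3 CPM, with Dcn, Pdgfra, Sparc and Adipoq at 0 in Klrb1c-positive cells. Myeloid genes had medians of 21.1 and 28.4 CPM, and erythroid genes of 23.7 and 77.8 CPM. CD8 T cell genes had medians of 0 and 10.4 CPM and maxima of 174.6 and 78.7 CPM. Cd8a or Cd8b1 was found in 12 of 282 Klrb1c-positive cells (4.26%) and 111 of 2435 Cxcr6 cells (4.56%). Genes of gamma delta T cells had medians of 233 and 61.9 CPM, higher in Klrb1c-positive cells in 10 of 10 samples, with Trdv4 and Cd163l1 at 0. This list holds the gamma chain segment Trgv2, with 305 UMIs in all Klrb1c-positive cells and 540 in all Cxcr6 cells, against 9 and 72 UMIs of Trdc. Trdc, the constant segment of the delta chain, was found in 5 of 282 Klrb1c-positive cells (1.77%) and 28 of 2435 Cxcr6 cells (1.15%).

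**Figure D1:**
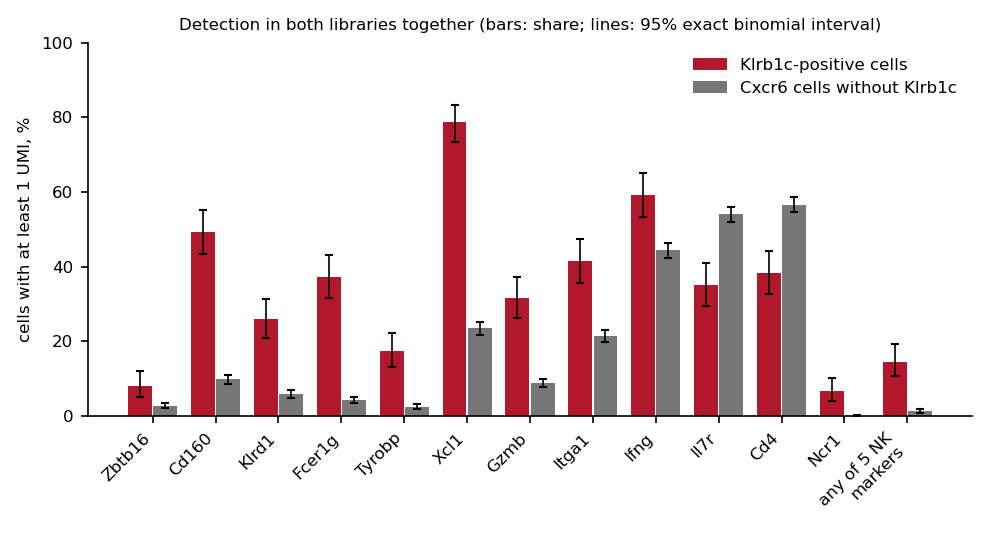
Bars show the percent of cells with at least 1 UMI of each gene in Klrb1c-positive cells (red, n = 282 cells) and Cxcr6 cells (grey, n = 2435 cells), and lines show 95% exact binomial intervals, which cover counting error only. Xcl1 was found in 78.7% of Klrb1c-positive cells and 23.5% of Cxcr6 cells, while Cd4 and Il7r were found in a smaller share of Klrb1c-positive cells.

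Free RNA in droplets can give a cell a UMI of a gene it does not express. Klrb1c was found in 1.11% and 0.774% of T cells with Foxp3 in experiments 1 and 2. It was found in 0 of 106 and 0 of 94 barcodes without Trbc1 or Trbc2, which allows shares of up to 2.83% and 3.19%. Among Foxp3-zero T cells with Cxcr6 the share was 5.09% and 6.95%, at median depths of 6298 and 4590 UMIs, against 6308 and 4406 UMIs in the T cells with Foxp3. Most Klrb1c-positive cells lay at the threshold: 51 of 94 and 104 of 188 had 1 Klrb1c UMI, and 20 and 39 had 3 or more. Cd160 was found in 45.1% and 37.5% of cells with 1 Klrb1c UMI, in 70.0% and 71.8% of cells with 3 or more, and in 9.27% and 10.1% of Cxcr6 cells, which had none. Fcer1g was found in 17.6% and 26.9% of cells with 1 Klrb1c UMI, in 45% and 69.2% of cells with 3 or more, and in 2.68% and 5.13% of Cxcr6 cells.

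At full depth, Klrb1c-positive cells made up a larger share of T cells in every SAT and VAT sample than in any BAT or spleen sample. They made up 6.12%, 3.36%, 3.47% and 4.65% of the T cells of the 4 SAT samples, a mean of 4.40% ± 1.28 (SD, n = 4). In VAT they made up 2.998%, 2.54%, 2.86% and 3.12% (2.88% ± 0.251). The BAT samples had 0.606%, 1.08%, 1.35% and 0.877% (0.979% ± 0.315), and the spleens 1.21%, 0.714%, 1.42% and 1.22% (1.14% ± 0.299). Every SAT sample lay above every VAT sample, and every VAT sample above every BAT and spleen sample. BAT replicate 4, with a weak hashtag, held 1 Klrb1c-positive cell among 114 T cells. SAT replicate 1, with the highest share, had a weak hashtag too, and the stricter rule kept 103 of its 376 T cells.

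SAT exceeded VAT by 1.52 percentage points, BAT by 3.42 and spleen by 3.26, and VAT exceeded BAT by 1.90 and spleen by 1.74. Each of these 5 differences had p = 0.0556 in a two-sided exact permutation test within experiments, the smallest p that this design can give, and an adjusted p of 0.0667 over the 6 pairs of tissues. BAT and spleen differed by -0.160 points (exact p = 0.444). The difference of SAT over VAT was 1.97 points in experiment 1 and 1.07 in experiment 2. With each cell thinned to 1000 UMIs, the shares were 1.15% in SAT, 1.18% in VAT, 0.118% in BAT and 0.434% in spleen, so that SAT and VAT changed order (-0.0332 points, exact p = 0.889). Thinned SAT samples ran from 0.306% to 1.86% and overlapped the spleens, at 0% to 0.826%. Thinned VAT samples, at 0.845% to 1.78%, stayed above the spleens, and no BAT sample exceeded 0.270%. Thinned levels are close to 1 Klrb1c UMI per cell. Cxcr6 cells averaged 37.3% of T cells in SAT, 32.9% in VAT, 11.3% in BAT and 3.42% in spleen.

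**Figure D2:**
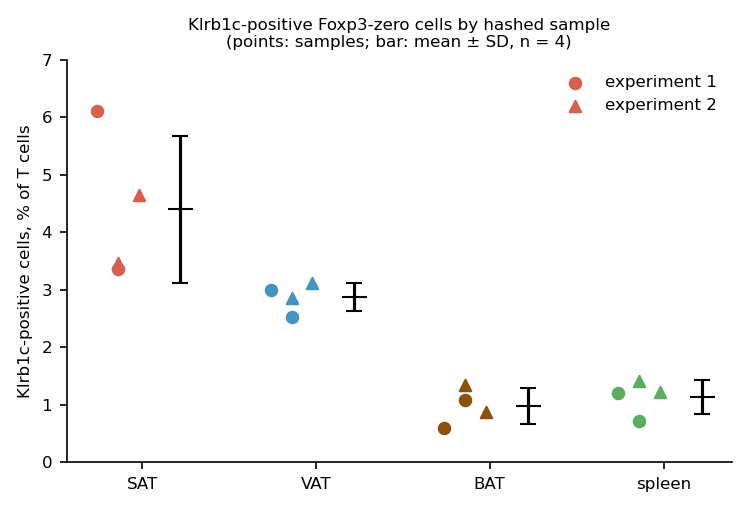
Each point is 1 hashed sample and gives Klrb1c-positive Foxp3-zero cells as a percent of its T cells, with circles for experiment 1 and triangles for experiment 2, and bars at the mean ± SD (n = 4). SAT samples lay between 3.36% and 6.12%, VAT samples between 2.54% and 3.12%, and no BAT or spleen sample exceeded 1.42%.

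The genes that set Klrb1c-positive cells apart from Cxcr6 cells were tested on summed counts of both kinds of cell within 10 hashed samples that had at least 10 of each (4 SAT, 3 VAT, 2 spleen and 1 BAT, 193 and 1542 cells). Of 2142 genes that passed the filter on low counts, 305 (14.2%) had an adjusted p under 0.05 in edgeR's quasi-likelihood test with Benjamini-Hochberg adjustment. Of these, 148 (6.91%) were higher and 157 (7.33%) lower in Klrb1c-positive cells, and the median log2 fold change of all genes was -0.00149. The genes that rose included those of natural killer receptors, their adaptors, cytotoxic granules and chemokines. Those that fell included genes of proliferation, lymphocyte recirculation and the CD4 T cell surface. A gene with few counts in Cxcr6 cells could pass the filter only through its counts in Klrb1c-positive cells. For such a gene a rise was largely fixed in advance. All levels below are in CPM of the summed counts, which are not corrected for gene length, so levels are compared between groups and not between genes.

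The largest rise was that of Fcer1g, the adaptor chain of Fc and natural killer receptors. Its level ran from 151.6 to 817.8 CPM, with a median of 309 CPM, in Klrb1c-positive cells, and from 0.701 to 67.2 CPM, with a median of 8.27 CPM, in Cxcr6 cells. The groups did not overlap, and the log2 fold change was 4.50 ± 0.25 (SE; adjusted p = 2.87e-15). Cd160 ran from 137.8 to 372.7 CPM in Klrb1c-positive cells (median 249) and from 10.5 to 83.6 CPM in Cxcr6 cells (median 40.6), again without overlap, at a log2 fold change of 2.68 ± 0.18. Klrd1, which did not pass the filter on low counts and was not tested, ran from 19.8 to 404.9 CPM in Klrb1c-positive cells and from 7.29 to 26.2 CPM in Cxcr6 cells, higher in 10 of 10 samples. Zbtb16 did not pass the filter either, with medians of 24.7 and 5.67 CPM. Of 23 natural killer receptor genes listed, Cd160 and Cd226 were the 2 tested, and both rose. Cd160, like Fcer1g, was low in Cxcr6 cells and passed the filter through its level in Klrb1c-positive cells. The 2 rises are therefore no result about the list. Cd226, a costimulatory receptor, averaged 484 ± 109 CPM in Klrb1c-positive cells and 342 ± 81.7 CPM in Cxcr6 cells (SD, n = 10 each). Its call was lost in 5 of 24 other settings, among them experiment 1 alone (log2 fold change 0.41).

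Genes of the cytotoxic granule rose in 3 of 5 tested cases, with a median log2 fold change of 1.13. Nkg7, a granule membrane protein, ran from 1035 to 1933 CPM in Klrb1c-positive cells and from 325.1 to 1044 CPM in Cxcr6 cells, higher in 10 of 10 samples and overlapping by a narrow margin (log2 fold change 1.13 ± 0.07). Ctsw, a protease of cytotoxic cells, averaged 664 ± 248 CPM in Klrb1c-positive cells and 273 ± 79.8 CPM in Cxcr6 cells. Gzmb, the serine protease granzyme B, ran from 9.41 to 749.9 CPM in Klrb1c-positive cells (median 246) and from 9.29 to 161 CPM in Cxcr6 cells (median 43.4). The Gzmb groups overlapped widely, the level was higher in 9 of 10 samples, and the log2 fold change was 2.10 ± 0.18. Srgn and Lamp1 did not pass the threshold.

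Of 11 tested genes of the type 1 programme, 7 rose, namely Tbx21, Ifng, Il2rb, Hopx, Ly6c2, Ccl5 and Xcl1, and 1 fell, Il18r1, with a median log2 fold change of 0.63. Xcl1, a chemokine that draws cross-presenting dendritic cells, ran from 224 to 2314 CPM in Klrb1c-positive cells (median 748) and from 65.0 to 368 CPM in Cxcr6 cells (median 199), a log2 fold change of 2.28 ± 0.15. The groups overlapped across samples, and within each of the 10 samples Klrb1c-positive cells were higher. Il2rb, the chain through which natural killer T cells receive interleukin 15, averaged 722 ± 310 CPM in Klrb1c-positive cells and 325 ± 107 CPM in Cxcr6 cells. Ly6c2, a surface antigen of effector T cells, averaged 844 ± 443 and 280 ± 120 CPM in the same order. Il18r1, a chain of the interleukin 18 receptor, averaged 60.1 ± 68.5 CPM in Klrb1c-positive cells and 116 ± 34.7 CPM in Cxcr6 cells, and its log2 fold change was -1.31 ± 0.30. It was higher in Klrb1c-positive cells in 3 of 10 samples, its log2 fold change ran from -2.98 to -0.97 over the other settings, and it did not pass in experiment 2 alone.

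Other genes that rose in every sample included Txk, a Tec-family kinase of the T cell receptor pathway (log2 fold change 1.63), and Slamf7, a receptor of natural killer and activated cells, which averaged 165 ± 75.2 CPM in Klrb1c-positive cells and 52.6 ± 22.4 CPM in Cxcr6 cells. Ugcg, which makes glucosylceramide, rose by 1.38 on the log2 scale, and Fgl2, a secreted fibrinogen-like protein, by 1.33. Kctd12, Arl4d and Arsb rose by 1.66, 1.64 and 1.24. Trgv2, a variable segment of the gamma chain, ran from 37.3 to 539 CPM in Klrb1c-positive cells (median 179) and from 0 to 86.0 CPM in Cxcr6 cells (median 45.5) (log2 fold change 2.23 ± 0.23), and was found in 40.4% and 8.62% of cells. Reads of a variable segment that lies outside a productive chain cannot be told apart from those of a receptor in these counts.

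Among the genes that fell, Stmn1, a microtubule regulator of dividing cells, ran from 0 to 176 CPM in Klrb1c-positive cells (median 19.9) and from 112 to 446 CPM in Cxcr6 cells (median 248), lower in 10 of 10 samples (log2 fold change -2.62 ± 0.23). Hmgb2, a chromatin protein of the same list, fell by 0.63, a call lost at -0.17 with cells thinned to 1000 UMIs, and Pcna did not pass. Tubb5, a tubulin chain, averaged 198 ± 61.1 CPM in Klrb1c-positive cells and 403 ± 109 CPM in Cxcr6 cells. Of 10 tested genes of residence and migration, 3 fell (S1pr1, Klf2 and Itga4) and 2 rose (Itga1 and Rgs1), with a median of -0.21. S1pr1, the receptor with which lymphocytes leave tissues, averaged 47.8 ± 25.8 CPM in Klrb1c-positive cells and 124 ± 35.03 CPM in Cxcr6 cells, lower in 10 of 10 samples. Gpr183, an oxysterol receptor that positions lymphocytes, averaged 48.6 ± 41.3 and 152 ± 35.1 CPM, at a log2 fold change of -1.87 ± 0.24. Klf2, the factor that drives S1pr1, averaged 202 ± 105 and 379 ± 171 CPM, lower in 8 of 10 samples. In experiment 1 alone the log2 fold changes of Klf2 and Itga4 were -0.25 and -0.40 and did not pass, and with at least 2 Klrb1c UMIs they were -0.72 and -0.23 and did not pass. The call of Itga4 was also lost with at least 20 cells per sum (-0.35) and with at least 1 Cxcr6 UMI in Klrb1c-positive cells (-0.43).

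Of 9 tested genes of the T cell receptor complex and coreceptors, 4 fell (Cd4, Cd247, Cd5 and Cd6) and 2 rose (Cd3d and Cd3g), with a median of -0.13. Cd5, an inhibitor of receptor signals, averaged 129.5 ± 77.7 CPM in Klrb1c-positive cells and 234 ± 35.5 CPM in Cxcr6 cells. Cd247, the zeta chain, averaged 115 ± 43.1 and 170 ± 15.2 CPM, lower in 10 of 10 samples. Cd4 averaged 98.3 ± 47.3 and 166 ± 30.1 CPM, lower in 9 of 10 samples, at a log2 fold change of -0.84 ± 0.16. In experiment 1 alone the log2 fold changes of Cd4 and Cd247 were -0.48 and -0.22 and did not pass. Il7r, the interleukin 7 receptor of resting T cells, spread widely, from 0 to 957 CPM in Klrb1c-positive cells (median 114) and from 194 to 754 CPM in Cxcr6 cells (median 412). It was lower in Klrb1c-positive cells of the 8 fat samples and higher in both spleens, and its log2 fold change was -1.06 ± 0.21.

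Lists of other natural killer T cell programmes had few genes that could be tested. None of the 12 genes of the type 17 list passed the filter on low counts. In the list of regulatory genes reported for fat natural killer T cells, Il2, Tgfb1 and Maf were tested and none passed the threshold (median 0.26). Of 3 tested type 2 genes, Gata3 fell, and its call was lost under 15 of 23 other settings. Of 13 tested genes of receptor signalling and the AP-1 family, 4 rose (Jund, Dusp1, Dusp2 and Ier2) and 2 fell (Fosb and Nfkbia), with a median of -0.09. None of 7 tested heat shock genes passed (edgeR, adjusted p, median -0.14). Of 4 tested interferon response genes, Ifi27l2a and Bst2 fell, by 0.72 and 0.75 on the log2 scale. The call of Bst2 was lost with at least 2 Klrb1c UMIs (-0.55) and with sums per library (-0.32).

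Without the cells that carried a natural killer marker, 296 of 2026 genes tested had an adjusted p under 0.05, and 140 were higher in Klrb1c-positive cells. There the log2 fold change was 4.34 for Fcer1g, 2.70 for Cd160, 2.27 for Xcl1, 2.22 for Trgv2 and -1.08 for Il7r. Of the 282 Klrb1c-positive cells 163 (57.8%) also had a Cxcr6 UMI. Set against the Cxcr6 cells these gave 244 calls of 5795 genes tested. Experiment 1 alone gave 212 calls of 6010 genes tested and experiment 2 alone 199 of 1983. With every cell thinned to 1000 UMIs 39 calls of 276 genes tested were made. With at least 2 Klrb1c UMIs per cell there were 164 of 5831. The number of genes that passed the filter differed between settings, so the counts of calls do not share 1 scale.

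Receptor segments of invariant natural killer T cells took a larger share of the reads in Klrb1c-positive cells. Of the Trbv UMIs, Trbv13-2, Trbv29 and Trbv1 together made up 56.6% ± 18.9 in Klrb1c-positive cells and 23.1% ± 9.67 in Cxcr6 cells (SD, n = 10 hashed samples each). The share was higher in Klrb1c-positive cells in 9 of 10 samples, by 33.5 points on average (two-sided exact sign-flip permutation p = 0.00391, adjusted p = 0.0117 over 3 tests, of which 0.00195 is the smallest possible p). The exception was SAT replicate 2, with 1 of 8 UMIs in Klrb1c-positive cells and 31 of 105 in Cxcr6 cells. These shares rest on few molecules, 66 of 111 UMIs against 250 of 961. The difference was 23.9 points in experiment 1, with too few samples to pass a test, and 37.6 points in experiment 2.

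Over all cells of both libraries, Trbv13-2 (chr6:41121396-41121832, mm10) took 28.8% of the 205 Trbv UMIs of Klrb1c-positive cells and 12.2% of the 1657 of Cxcr6 cells. Trbv29 (chr6:41271394-41271881) took 13.7% and 3.38%. Trbv1 (chr6:40891229-40891885) took 8.29% and 7.97%, a smaller difference than in the other two. Outside this set, Trbv13-1 took 8.78% and 4.28%, Trbv20 3.90% and 12.5%, and Trbv19 0.488% and 8.27%.

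The invariant alpha chain was seen in a minority of cells. Traj18, the segment printed above, was found in 15 of 282 Klrb1c-positive cells (5.32%) and 26 of 2435 Cxcr6 cells (1.07%), and in 6.65% ± 3.76 and 1.34% ± 1.23 of cells across the 10 samples. Its share was higher in 8 of 10 samples, by 5.31 points (exact sign-flip permutation p = 0.0117, adjusted p = 0.0176). The Traj18 difference was 1.42 points in experiment 1 and 6.97 points in experiment 2, and 0.833 points (exact p = 0.75) with cells thinned to 1000 UMIs. Trav11 (chr14:53519303-53519859) was found in 10 Klrb1c-positive cells (3.55%) and 28 Cxcr6 cells (1.15%), higher in 6 of 10 samples, by 4.02 points (exact p = 0.0312, adjusted p = 0.0312), with 9.04 points in experiment 1 and 1.87 in experiment 2. VAT replicate 1 alone had a Trav11 difference of 20.4 points, and without it the difference was 2.21 points with an exact permutation p of 0.0625. The p was also 0.0625 without SAT replicates 2 and 4, VAT replicates 3 and 4 and spleen replicate 4 in turn. Trav11d had no UMI in either group. Trav11 or Traj18 was found in 25 Klrb1c-positive cells (8.87%) and 50 Cxcr6 cells (2.05%). The 3′ libraries read little of the variable part: any Trav segment was found in 27.0% of Klrb1c-positive cells and 37.04% of Cxcr6 cells. Trav1, a segment of mucosal invariant T cells, was found in 0 Klrb1c-positive cells and 4 Cxcr6 cells. A count of 0 allows up to 1.06% of cells with a Trav1 UMI, which does not limit the cells that carry the receptor.

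**Figure D3:**
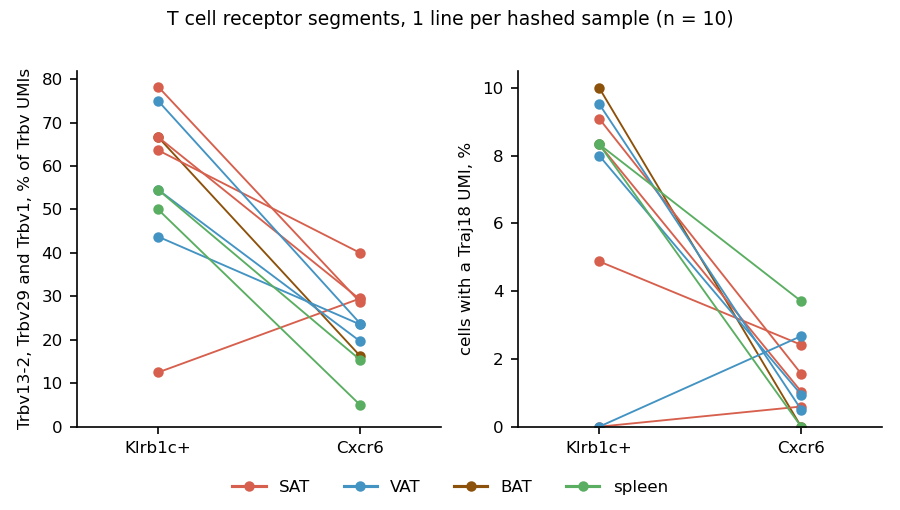
Lines join Klrb1c-positive cells (left) and Cxcr6 cells (right) of 1 hashed sample, as the percent of Trbv UMIs from Trbv13-2, Trbv29 and Trbv1 (left panel) and the percent of cells with a Traj18 UMI (right panel), n = 10 samples. The beta chain share is higher in Klrb1c-positive cells in 9 samples and the Traj18 share in 8.

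Within the Klrb1c-positive cells, the 23 with Zbtb16 were set against the 259 without. No hashed sample held 10 cells of each kind, so the test used the sums of each library (6 and 17 against 88 and 171 cells), which left 1 residual degree of freedom. Of 5291 genes tested, 6 (0.113%) had an adjusted p under 0.05 in edgeR's quasi-likelihood test, 3 higher (0.0567%) and 3 lower (0.0567%), and 256 had an unadjusted p under 0.05. Cd160 had 388 and 496 CPM in Zbtb16-positive cells of experiments 1 and 2, against 160 and 190 CPM in Zbtb16-zero cells (log2 fold change 1.28 ± 0.25). Ccl4, an inflammatory chemokine, had 658 and 1803 CPM in Zbtb16-positive cells and 309.7 and 548 CPM in Zbtb16-zero cells. Tnfrsf9, the costimulatory receptor 4-1BB, had 186 and 28.6 CPM in Zbtb16-positive cells and 4.11 and 14.0 CPM in Zbtb16-zero cells. The Zbtb16-positive sums held 59231 and 104809 UMIs, so these levels of Tnfrsf9 rest on few UMIs. In both libraries Cd160, Ccl4 and Tnfrsf9 were higher in Zbtb16-positive cells.

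Gzma, the serine protease granzyme A, had 0 UMIs in the 23 Zbtb16-positive cells and 456 UMIs in 15 of the 259 Zbtb16-zero cells, 264 CPM. Gzma was called lower, but its UMIs lay in few cells. The limit of 3 counts over the Zbtb16-positive cells, 18.3 CPM, therefore gives no bound on the fold change. A count of 0 of 23 allows up to 13.0% of cells with a Gzma UMI, above the 5.79% found in Zbtb16-zero cells. It does not limit the cells that express it. Hba-a1, a haemoglobin chain of red cells and one of near-identical copies, and Gm12840 also fell. None of the 6 calls was kept in every other setting that was run. DESeq2 made 1 call, and thinning to 1000 UMIs left 0 of 749 genes tested. Leaving out 1 hashed sample at a time gave 1 to 11. The count was 11 without BAT replicate 3 and 10 without VAT replicate 2. It was 3 without BAT replicate 1 or SAT replicate 2, and 1 without SAT replicate 4. It was 2 without BAT replicate 2 or 4, VAT replicate 1 or spleen replicate 1 or 2. Ccl4 changed sign without SAT replicate 4 (log2 fold change -0.49). In simulated data of this comparison, with 1 fixed dispersion for all genes, 39.6% of genes changed 4-fold were recovered and 5.62% of those changed 2-fold.

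Receptor segments and natural killer genes are given for the same split as shares of cells, which were not tested. Trav11 or Traj18 was found in 2 of 23 Zbtb16-positive cells (8.70%) and 23 of 259 Zbtb16-zero cells (8.88%). A segment of Trbv13-2, Trbv29 or Trbv1 was found in 30.4% and 27.4%, Fcer1g in 39.1% and 37.1%, and a natural killer marker in 17.4% and 14.3%. Cd4 was found in 30.4% of Zbtb16-positive and 39.0% of Zbtb16-zero cells. Median depths were 5696 and 5597 UMIs. Zbtb16-positive cells made up 7.84% ± 5.43 of Klrb1c-positive cells in SAT (SD, n = 4) and 7.97% ± 3.69 in VAT (n = 3), a difference of -0.132 points (exact permutation p = 0.944).

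Klrb1c-positive cells of SAT and VAT were compared over the 4 SAT samples and the 3 VAT samples with at least 10 such cells; VAT replicate 2 had 9. Of 1906 genes tested, 75 (3.93%) had an adjusted p under 0.05 in edgeR's quasi-likelihood test with experiment as a term, 41 (2.15%) higher and 34 (1.78%) lower in SAT. DESeq2 made 46 calls, 17 higher and 29 lower. Gzmb, Xcl1 and Ccl4 were higher in SAT, Ccl5 was not called, and Il7r was lower. Of 10 tested natural killer receptor genes none was higher and 3 were lower in SAT (Klrd1, Klrk1 and Klre1), while the median log2 fold change of the 10 was 0.50, the opposite sign. Cells of a type and RNA per cell cannot be told apart in such sums. The count of calls was 49 without SAT replicate 3, 41 without SAT replicate 4, 22 without VAT replicate 1, 42 without VAT replicate 3 and 36 without VAT replicate 4. Natural killer markers were found in 29.3% of the Klrb1c-positive cells of SAT replicate 4, in 21.4% and 19.0% of those of VAT replicates 1 and 4, and in 0% to 8.70% in the other fat samples used. Without those cells 25 of 1824 genes tested were called, 17 of them higher in SAT. Experiment 1 alone left VAT replicate 1 as the only VAT sample. Experiment 2 alone gave 22 calls of 1930 genes tested.

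Gzmb was 376, 288, 284 and 749.9 CPM in the SAT samples and 9.41, 208 and 55.1 CPM in the VAT samples. Every SAT sample was above every VAT sample, and the log2 fold change was 2.35 ± 0.31 (adjusted p = 1.52e-07; 1.92 without cells with natural killer markers). Xcl1 was 1002, 627, 2314 and 1919 CPM in SAT and 414, 632 and 864 CPM in VAT, which overlapped, at a log2 fold change of 1.33 ± 0.15. Ccl4 was 422, 12.5, 2194 and 1811 CPM in SAT and 47.0, 104 and 202 CPM in VAT, so that SAT replicate 2 lay below every VAT sample although the log2 fold change was 3.53 ± 0.28. Cd7, a surface glycoprotein of T and natural killer cells, was 560, 552, 463 and 1154 CPM in SAT and 226, 208 and 322 CPM in VAT, and Fgl2 was 817, 539, 642 and 657 CPM in SAT and 264, 251 and 322 CPM in VAT. For both genes the groups did not overlap, with log2 fold changes of 1.51 ± 0.22 and 1.23 ± 0.19. Itga1, the integrin CD49a of tissue-resident lymphocytes, was 142 to 316 CPM in SAT and 60.6 to 91.9 CPM in VAT, without overlap, at a log2 fold change of 1.25. Its call was lost without SAT replicate 1 and VAT replicates 1 and 3 in turn (lowest log2 fold change 0.89) and without cells with natural killer markers (0.90).

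Lower in SAT was Il7r, at 13.2, 75.2, 89.6 and 68.2 CPM in SAT and 264, 390 and 138 CPM in VAT, without overlap (log2 fold change -2.15 ± 0.32, adjusted p = 2.54e-06; -2.52 without cells with natural killer markers). Klrk1, the activating receptor NKG2D, was 26.4, 75.2, 254 and 63.3 CPM in SAT and 207, 329 and 606 CPM in VAT, with SAT replicate 3 inside the range of VAT (log2 fold change -1.84 ± 0.29). Klre1 and Klrd1, which encode receptors of the same lectin-like family, had log2 fold changes of -2.25 ± 0.42 and -1.46 ± 0.33. The calls of both were lost without cells with natural killer markers (log2 fold changes -2.09 and -0.997), and that of Klrd1 without VAT replicates 1 and 4 in turn (-1.52 and -0.98). Gzma was 6.59, 351, 0 and 14.6 CPM in SAT and 160, 762 and 404 CPM in VAT, and its call was lost without VAT replicate 3 (-2.31) and without cells with natural killer markers (-2.49). Rbm3, a cold-inducible RNA-binding protein, was 297 to 418 CPM in SAT and 678 to 845 CPM in VAT, without overlap (log2 fold change -1.12 ± 0.17). In experiment 1 alone Rbm3 (-0.92) and Xcl1 (0.97) did not pass. Of 14 tested genes of receptor signalling and the AP-1 family, Fos, Junb and Dusp2 were lower in SAT and none was higher, with a median of -0.18. Each of these 3 calls was lost without VAT replicate 1, at log2 fold changes of -0.76, -0.33 and -0.32. Cd160 (log2 fold change 0.61, adjusted p = 0.180), Fcer1g (0.04, adjusted p = 0.971) and Cd4 (-0.19, adjusted p = 0.891) were not called.

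The same tissues were compared in the Cxcr6 cells of the same samples, where 252 of 8101 genes (3.11%) had an adjusted p under 0.05, with 1.91% higher and 1.2% lower in SAT, and the difference between the 2 cell groups was tested as an interaction. The comparisons use the same hashed samples. Side by side, the log2 fold change of SAT over VAT was 2.35 in Klrb1c-positive cells and 1.90 in Cxcr6 cells for Gzmb, 1.33 and 1.85 for Xcl1, 1.51 and 1.52 for Cd7, 1.23 and 1.02 for Fgl2, and -1.12 and -0.99 for Rbm3. For none of these 5 genes did the interaction pass the threshold, and the differences were 0.44 ± 0.42 (SE), -0.63 ± 0.25, 0.07 ± 0.27, 0.23 ± 0.21 and -0.10 ± 0.17. In simulated data the interaction fit recovered 60% of genes changed 4-fold and 11.6% of those changed 2-fold. A gene that did not pass is therefore not shown to have the same tissue effect in both cell groups. Over 5853 genes, 3 (0.0513%) passed, 1 higher (0.0171%) and 2 lower (0.0342%), and 321 had an unadjusted p under 0.05. The interaction count was 7 without SAT replicate 2, 9 without SAT replicate 3 and 6 without VAT replicate 3, and that of the Cxcr6 cells was 117 without VAT replicate 1 and 111 without VAT replicate 4.

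S100a6, a calcium-binding protein of effector cells, was 4185, 2933, 3732 and 3725 CPM in Klrb1c-positive cells of SAT and 1788, 2745 and 2867 CPM in those of VAT, without overlap. In Cxcr6 cells it averaged 1848 ± 346 CPM in SAT (SD, n = 4) and 2357 ± 425 CPM in VAT (n = 3), so the tissues ran in opposite order in the 2 cell groups. The difference of the effects was 0.95 ± 0.12 on the log2 scale (adjusted p = 1.85e-06) and passed in all 14 other settings, from 0.76 to 1.10. Fcer1g had a difference of -2.80 ± 0.41 (adjusted p = 2.47e-05): its SAT over VAT log2 fold change was 0.04 in Klrb1c-positive cells and 2.99 in Cxcr6 cells, where it averaged 31.6 ± 26.7 CPM in SAT and 4.86 ± 3.996 CPM in VAT. This call was lost without cells with natural killer markers (-1.92, adjusted p = 0.370) and without VAT replicate 4. Il7r had a difference of -1.57 ± 0.32 (adjusted p = 0.0154), from log2 fold changes of -2.15 in Klrb1c-positive cells and -0.50 in Cxcr6 cells, and passed in 8 of 14 other settings. Its call was lost without SAT replicate 4, VAT replicate 1 and VAT replicate 3 in turn.

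**Figure D4:**
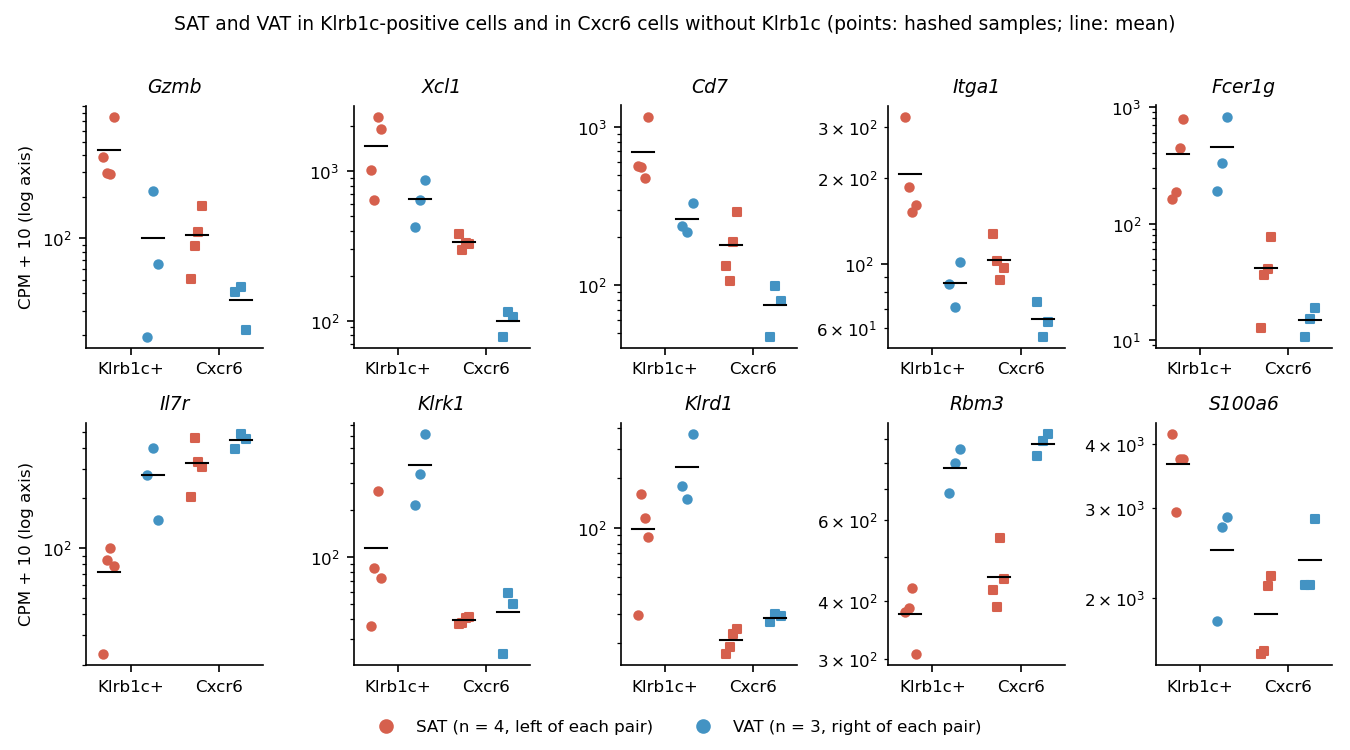
Points give CPM + 10 (log axis) of summed cells in SAT samples (red, n = 4, left of each pair) and VAT samples (blue, n = 3, right of each pair), for Klrb1c-positive cells (circles) and Cxcr6 cells (squares), with lines at the mean. Gzmb, Xcl1 and Cd7 are higher in SAT in both cell groups, Rbm3 is lower in both, and S100a6 is higher in SAT in Klrb1c-positive cells and lower in Cxcr6 cells.

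BAT and spleen held 18 and 31 Klrb1c-positive cells with a hashed sample and are given as pooled values with counting error only. Il7r was found in 80.6% of Klrb1c-positive cells of the spleen and 16.7% of those of BAT, against 73.4% and 47.2% of Cxcr6 cells. In SAT it was found in 13.1% of Klrb1c-positive cells and 43.05% of Cxcr6 cells, and in VAT in 26.1% and 57.9%. Itga1 was found in 66.7%, 56.6%, 36.2% and 9.68% of Klrb1c-positive cells of the 4 tissues, from BAT through SAT and VAT to spleen. Xcl1 was found in 94.4%, 89.9%, 76.8% and 64.5% in the same order, and Fcer1g in 50%, 47.5%, 36.2% and 19.4%. Klrd1 was found in 5.56%, 15.2%, 36.2% and 41.9%, so its shares ran against those of Fcer1g. Gzmb was highest in SAT, at 52.5%, against 27.8% in BAT, 13.0% in VAT and 6.45% in spleen. Cd4 was found in 38.9%, 37.4%, 34.8% and 32.3%, and Zbtb16 in 11.1%, 8.08%, 8.70% and 9.68%.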

How the data were processed

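Single-cell data (2 libraries) of sorted CD4 T cells were used as deposited. Per the file headers, the authors made the count matrices with Cell Ranger (cellranger 6.1.0), and the values are raw UMI counts per gene and hashtag, not normalized. Per the submitters' processing notes the build was mm10. Gene IDs matched GENCODE vM21.

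Members, gene lists and comparisons were chosen with earlier results of these data known. Cells were given to hashed samples by a mixture model fitted to each hashtag, with a required probability of 0.95. The stricter rule required 0.99 and a called hashtag at least 2 robust SDs above the next highest. Of single cells simulated from the fitted model itself, 88.7% and 86.9% were called, and 99.5% and 99.7% of calls were right. This does not measure the error on real cells, of which 3141 of 3879 and 5809 of 8910 were given to 1 sample. Pairs of hashtags that include a weak one were not modelled. Doublets were removed only as cells with hashtags of more than 1 sample, and no caller was run. Library sums, used for the Zbtb16 split, kept these cells.

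Counts were summed per hashed sample and cell group (at least 10 cells) and tested with edgeR 4.0.16 (TMM, filterByExpr at a minimum count of 10, quasi-likelihood F test, Benjamini-Hochberg threshold 0.05) in R 4.3.3, with the hashed sample as a block within samples and experiment as a term between tissues. DESeq2 1.42.0 was an alternative. Shares used exact permutation tests in scipy 1.17.1, and Python was 3.11.15. The interaction, the Cxcr6 cell tissue test, the Traj18 test and the settings without natural killer markers were added after the data were seen. Named genes were the 12 largest rises and 10 largest falls among called genes of at least 10 CPM with 1 sign in every sample (for SAT against VAT, without overlap), up to 4 per list, and the markers of the working name. Intervals and limits of a count of 0 (3 counts) cover counting error only. Tested on simulated data, the Klrb1c-positive against Cxcr6 fit recovered 100% of genes changed 4-fold and 95.2% of those changed 2-fold. The SAT against VAT fit recovered 97.4% and 45.3%, the interaction fit 60% and 11.6%, and the Cxcr6 cell tissue fit 95.7% and 43.9%. The simulated counts had 1 fixed dispersion for all genes and no differences between tissues, experiments or samples, so recovery in the real data may be lower. Alternatives covered scaling, filters, thinning, hashtag rules, other lineages, experiments and single samples.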

Additional observations from a re-analysis of the deposited data

Results flagged for a closer look

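In 5 of 33 groups of samples tested, 1 sample stood far from the others. The cut-offs are made for independent normal values. These levels and shares are skewed or rest on few counts, and the groups reuse the same samples. The number is therefore not set against chance. The difference in the Trbv13-2, Trbv29 and Trbv1 share between Klrb1c-positive and Cxcr6 cells was -17.0 points in SAT replicate 2, the lowest of 10 samples. The difference in the share of cells with Trav11 was 20.4 points in VAT replicate 1, the highest of 10. Gzmb reached 749.9 CPM in Klrb1c-positive cells of SAT replicate 4, where natural killer markers were found in 29.3% of those cells. In Cxcr6 cells, Fcer1g reached 67.2 CPM in SAT replicate 4 and Il7r 754 CPM in spleen replicate 4. The part of these samples in the results was tested only by leaving each out.

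For 3 genes the difference between Klrb1c-positive and Cxcr6 cells was unequal in SAT and VAT in edgeR's interaction test, by 0.95 on the log2 scale for S100a6, -2.80 for Fcer1g and -1.57 for Il7r.

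Both libraries also held counts of a hashtag that no label names, 3854 in experiment 1 (0.0722% of hashtag counts) and 4443 in experiment 2 (0.0703%). It was the highest hashtag in 0 T cells.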

How the results depend on the processing

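Of the genes named for Klrb1c-positive against Cxcr6 cells, 29 of 51 were called in every setting in which they were tested. For SAT against VAT 6 of 39 were, for the Zbtb16 split 0 of 6 and for the interaction 1 of 3. Calls of Klrb1c-positive against Cxcr6 cells numbered 623 of 19190 genes tested with no filter and 596 of 10813 with sums per library. They numbered 199 of 1983 in experiment 2 alone and 164 of 5831 with at least 2 Klrb1c UMIs. After thinning to 1000 UMIs they numbered 39 of 276, and with 1 hashed sample left out 234 to 305. Without the hashed sample as a block they numbered 328. The log2 fold change of Tnfrsf18 turned to -0.029 with at least 2 Klrb1c UMIs.

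After thinning, the Zbtb16 split gave 0 calls of 749 genes tested. Its calls numbered 1 with DESeq2, the stricter hashtag rule, no natural killer markers or no multiple hashtags. They numbered 2 with library size only, 3 without other lineages, and 1 to 11 with 1 sample left out. The log2 fold change of Ccl4 turned to -0.49 without SAT replicate 4 (up to 2.15 with another sample left out) and that of Cd160 to -0.029 after thinning. SAT against VAT gave 46 calls with DESeq2, 23 of 2269 genes tested with at least 20 cells per sum and 17 of 292 after thinning. It gave 22 of 1930 in experiment 2 alone and 25 of 1824 without natural killer markers. With 1 sample left out it gave 22 to 64. The interaction gave 10 of 18982 with no filter, 5 of 5311 without other lineages and 2 to 9 with 1 sample left out. SAT against VAT in Cxcr6 cells gave 119 with DESeq2, 163 of 7900 with the stricter hashtag rule and 44 of 3025 after thinning. With 1 sample left out it gave 111 to 371.

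The SAT over VAT share turned to -0.0332 points after thinning, and BAT over spleen to 0.748 with the stricter hashtag rule. The Zbtb16 share difference of SAT and VAT turned to 1.29 with the stricter hashtag rule, 0.157 without other lineages, 2.75 in experiment 2 alone, 1.00 without natural killer markers, 2.48 without SAT replicate 1 and 1.88 without VAT replicate 3, and ran from -1.73 to 2.48 with 1 sample left out. The Trav11 difference lost its call at 1.33 points after thinning, 0.583 with at least 2 Klrb1c UMIs and 9.04 and 1.87 in experiments 1 and 2 alone, and ran from 2.21 to 4.61 with 1 sample left out. The Trbv share lost its call at 33.8 points with at least 2 Klrb1c UMIs and 23.9 in experiment 1 alone. Traj18 lost its call at 0.833, 4.76 and 1.42 points after thinning, with at least 2 Klrb1c UMIs and in experiment 1 alone. The cause of these changes was not tested, beyond fewer cells, UMIs or samples.

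Whether the labels' sample numbers pair the samples is uncertain, and they were not used as pairs. Same-numbered samples of 2 tissues correlated over all T cells at 0.143 to 0.531 in experiment 2, for all 6 pairs of tissues, and at -0.5155 to 0.202 in experiment 1. Over Cxcr6 cells they correlated at -0.0796 to 0.1545. With the number as a replicate block, SAT against VAT gave 43 calls, and the exact p of the 5 larger share differences was 0.125, the smallest that 4 pairs can give.

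Not run, for want of cells or residual degrees of freedom, were SAT against VAT with at least 2 Klrb1c UMIs, the Zbtb16 share with at least 2 Klrb1c UMIs, and the Zbtb16 split with at least 20 cells per sum, per hashed sample or in 1 experiment. Few Klrb1c-positive cells per sample limit every comparison: 10 to 41 per sum.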

Other observations

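Within the 282 Klrb1c-positive cells, some genes were detected together more often than others. The values are pooled over samples and tissues, describe cells and were not tested. Fcer1g, Gzmb, Xcl1, Il7r, Klrd1 and Itga1 differed between tissues in the shares given above, and co-detection within a tissue was not tested. Of 222 cells with Xcl1, 133 (59.9%) had Cd160, against 6 of 60 cells without Xcl1 (10.0%), at median depths of 5745 and 4429.5 UMIs. Of 105 cells with Fcer1g, 50.5% had Gzmb, against 20.3% of 177 cells without, at depths of 5651 and 5566 UMIs. The cells with Fcer1g also had a natural killer marker in 29.5% of cases, against 5.65% without, and Il7r in 21.9%, against 42.9%. Cd4 was found in 36.2% of cells with Fcer1g and 39.5% of cells without. Gzma was found in 15 cells, 10 of them with Klrd1 (66.7%, against 23.6% of the cells without Gzma) and 7 with a natural killer marker (46.7%, against 12.7%), and none of the 15 had Trav11, Traj18 or Zbtb16.

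Cells with the invariant alpha segments were described as well. Of the 25 Klrb1c-positive cells with Trav11 or Traj18, 21 (84.0%) had Cxcr6, against 142 of 257 without (55.3%). Itga1 was found in 60.0% of them, against 39.7% of the rest, and a Trbv13-2, Trbv29 or Trbv1 segment in 40.0%, against 26.5%.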
